A study of Mus musculus with 6 samples.

Results

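The genes described here are 10 transcriptional outputs and negative feedback regulators of RAS-ERK signalling, chosen by name from the deposited count table of 18238 genes: Dusp4, Dusp5, Dusp6, Spry1, Spry2, Spry4, Spred1, Spred2, Etv4 and Phlda1. All 10 were found, and all 10 were among the 15242 genes with enough counts to be tested. RNA was sequenced from 6 mice with lung cancer, 3 in the untreated model group (model replicates 1 to 3) and 3 given artemisinin (artemisinin replicates 1 to 3). Both groups carried the cancer, and the way it was induced, the strain, the age, the tissue taken, the dose and the duration are not given in the sources used here. Artemisinin is an antimalarial sesquiterpene lactone of the plant Artemisia annua. The comparison asked how expression of genes related to lung cancer differed under the drug.

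ERK is the last kinase of a cascade in which growth factor receptors activate RAS, RAS activates RAF, RAF activates MEK and MEK activates ERK. Active ERK induces transcription factors of the ETS family such as Etv4, and it also induces its own inhibitors, so that the transcripts of those inhibitors are used as a readout of pathway output. The DUSP genes of this group encode phosphatases that remove the activating phosphates from MAP kinases, the Sprouty (Spry) and Spred proteins act upstream on RAS and RAF, and Phlda1 encodes a pleckstrin homology-like domain protein. In the lung, ERK signalling is known for its part in branching of the airways, in maintenance of alveolar type 2 cells and in tumours with RAS pathway mutations.

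Each of the 10 genes had a log2 fold change below 0, except that Dusp6 and Spry4 turned above 0 with scaling by library totals. Of the 10, 3 fell with artemisinin: Etv4, Dusp4 and Spred1 (edgeR quasi-likelihood test, adjusted p under 0.05 after Benjamini-Hochberg adjustment over all 15242 genes). For Spry1, Spry2, Spred2 and Phlda1 the 3 artemisinin values all lay below the 3 model values but the adjusted p missed the threshold. Dusp5, Dusp6 and Spry4 had overlapping groups. Of all genes tested, 2.30% were called lower and 17.3% had all 3 artemisinin values below the model values, against 3 of 10 and 7 of 10 here. The median log2 fold change was −0.80 over the 10 genes and 0.04 over all genes tested, of which 46.8% were below 0. The 10 genes were chosen with earlier results of these libraries known, so these counts are a description and carry no test of the group. Fewer cells that express a gene and less of its RNA per cell cannot be told apart in RNA from whole samples.

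**Figure D1:**
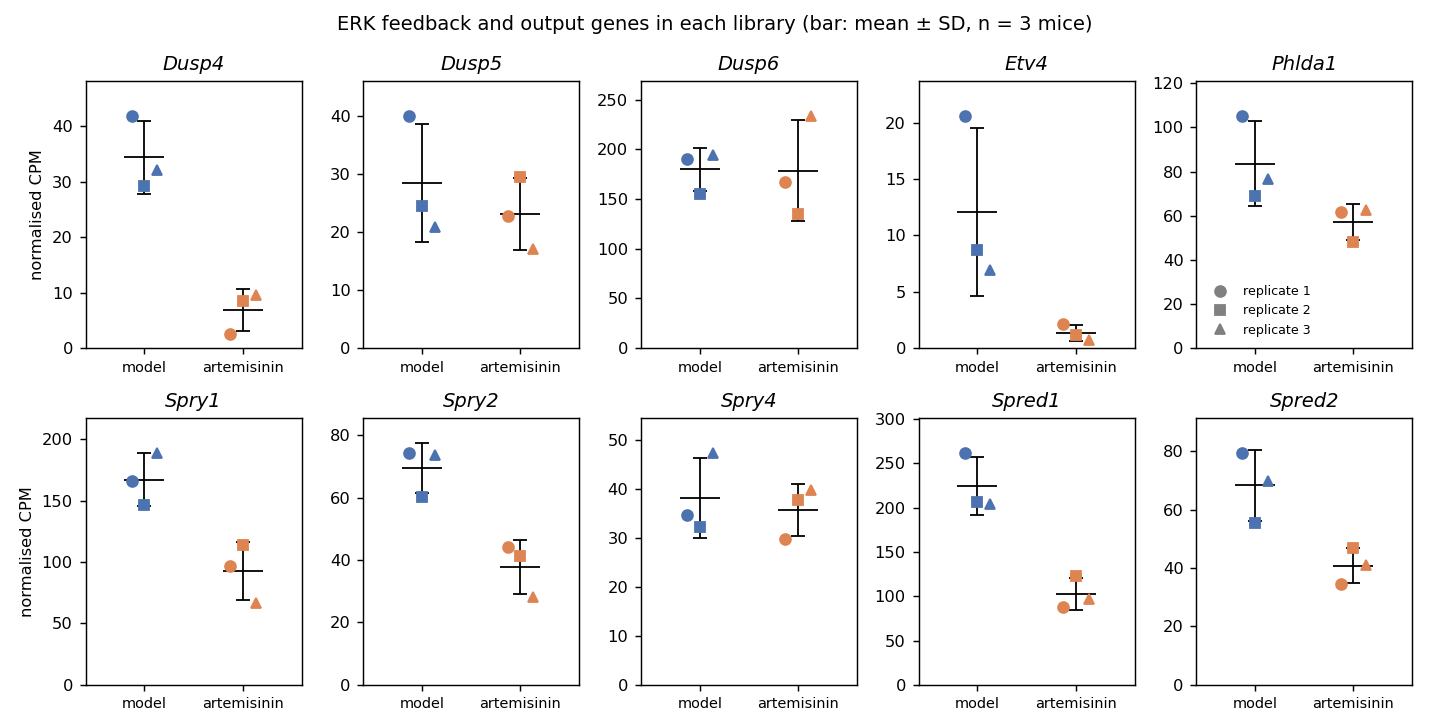
Normalised CPM (counts scaled to a common library total; vertical axes, starting at 0) of each of the 10 genes in the 3 model and 3 artemisinin libraries, with 1 point per mouse and bars for the mean ± SD. The artemisinin points of Etv4, Dusp4, Spred1, Spred2, Spry1, Spry2 and Phlda1 lie below all model points, and those of Dusp5, Dusp6 and Spry4 do not.

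The promoters of 6 of the 10 genes matched the RefSeq promoter table of GRCm38.p6, each a window of 300 bases from 250 before to 50 after the start of the gene. They were searched on both strands for CCGGAA, a form of the ETS motif, the AP-1 motif TGANTCA and the cyclic AMP response element TGACGTCA. Also searched were the CArG box bound by serum response factor and the capicua octamers TGAATGAA and TGAATGGA. For ETS factors only the full CCGGAA was searched, so GGAA without the leading CC stands unmarked. Below are Spred1, which was called lower, Spry2, which held CCGGAA, and Dusp5, which held CArG boxes, with matches in capitals. The windows are chr2:117120821-117121120 on the plus strand, chr14:105896770-105897069 on the minus strand and chr19:53528895-53529194 on the plus strand, all written 5′ to 3′ along the gene.
Spred1: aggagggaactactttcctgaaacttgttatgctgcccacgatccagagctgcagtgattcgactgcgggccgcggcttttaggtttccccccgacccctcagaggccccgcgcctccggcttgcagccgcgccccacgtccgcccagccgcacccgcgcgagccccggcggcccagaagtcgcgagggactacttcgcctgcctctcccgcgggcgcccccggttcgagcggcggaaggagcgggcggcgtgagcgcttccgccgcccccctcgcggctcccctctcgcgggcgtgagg
Spry2: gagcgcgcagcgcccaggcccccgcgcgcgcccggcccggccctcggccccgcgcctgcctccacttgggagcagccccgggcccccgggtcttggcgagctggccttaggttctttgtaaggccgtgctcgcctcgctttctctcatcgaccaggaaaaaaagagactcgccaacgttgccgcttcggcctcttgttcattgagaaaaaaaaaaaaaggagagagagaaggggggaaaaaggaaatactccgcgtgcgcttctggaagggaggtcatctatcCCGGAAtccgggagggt
Dusp5: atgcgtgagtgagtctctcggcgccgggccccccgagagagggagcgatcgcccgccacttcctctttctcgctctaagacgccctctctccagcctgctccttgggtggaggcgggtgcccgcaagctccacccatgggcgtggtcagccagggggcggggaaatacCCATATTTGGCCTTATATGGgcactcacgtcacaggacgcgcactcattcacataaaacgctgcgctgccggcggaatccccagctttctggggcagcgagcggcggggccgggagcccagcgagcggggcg
The Spry2 window held CCGGAA at bases 34 to 39 after the start, a motif found in 14.9% of all 32851 promoters in the table. The Dusp5 window held 2 adjoining CArG boxes at bases −82 to −73 and −72 to −63, a motif found in 1.63% of all promoters. The windows of Spred1, Spred2, Spry1 and Dusp6 held none of the 6 motifs, and the AP-1, cyclic AMP and capicua motifs were found in 0 of the 6 windows, against 7.81%, 1.79%, 1.30% and 1.21% of all promoters. A match is a stretch of letters and not a measured binding site.

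Etv4 encodes an ETS transcription factor that ERK induces (chromosome 11, 101769747 to 101785310, GRCm38, protein coding, like all 10 genes). It had 678, 281 and 221 counts in model replicates 1, 2 and 3 and 57, 36 and 25 in artemisinin replicates 1, 2 and 3. In normalised CPM these were 20.6, 8.68 and 6.97 in the model and 2.11, 1.13 and 0.716 with artemisinin. Model replicate 1 stood well above the other model mice, and the lowest model mouse was still above the highest treated mouse. Etv4 fell 9.19-fold (log2 −3.20 ± 0.58, SE; edgeR adjusted p = 0.0312). This was the largest change of the group in edgeR, while limma on log2(FPKM + 1), a scale that shrinks changes of low genes, gave −1.80 for Etv4 and −1.99 for Dusp4. The log2 fold change was −2.58 without model replicate 1 and −3.71 without artemisinin replicate 1. Etv4 was not called without artemisinin replicate 1 or 3 (edgeR adjusted p = 0.0557 and 0.0608) or without model replicate 1, 2 or 3 (0.128, 0.0710 and 0.0825).

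Of the dual specificity phosphatase genes 1 of 3 was called. Dusp4, a nuclear phosphatase of ERK and other MAP kinases (chromosome 8, 34807610 to 34819894), had 41.9, 29.2 and 32.1 normalised CPM in model replicates 1 to 3 and 2.59, 8.51 and 9.59 in artemisinin replicates 1 to 3. The treated mice were all far below the model mice, with artemisinin replicate 1 lowest at 70 counts. Dusp4 fell 4.97-fold (log2 −2.31 ± 0.46, SE; edgeR adjusted p = 0.0378). Its call held without any 1 artemisinin library and was lost without model replicate 1, 2 or 3 (edgeR adjusted p = 0.163, 0.0878 and 0.120).

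Dusp6, the cytoplasmic phosphatase that is specific for ERK (chromosome 10, 99263231 to 99267489), had 190.1, 155.4 and 194 normalised CPM in model replicates 1 to 3 and 167.5, 134.8 and 233.8 in artemisinin replicates 1 to 3. The groups overlapped, and artemisinin replicates 3 and 2 gave the highest and the lowest value of all 6 mice. The log2 fold change was −0.01 with a 95% interval of −0.53 to 0.52 (edgeR adjusted p = 0.983). Dusp5, a nuclear phosphatase specific for ERK (chromosome 19, 53529145 to 53541809), had 40.0, 24.5 and 20.8 normalised CPM in model mice and 22.7, 29.5 and 17.2 in treated mice. Here too the groups overlapped, and the highest value came from model replicate 1. The log2 fold change of Dusp5 was −0.30 (95% interval −0.997 to 0.398; edgeR adjusted p = 0.554), and it was 0.03 without model replicate 1. The sign for Dusp6 turned with scaling by library totals (log2 0.11).

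On the deposited FPKM scale, which divides counts by gene length, Dusp6 was the main transcript of these 3 phosphatases in every library. Dusp4 made up 17.5%, 16.3% and 15.6% of their summed FPKM in model replicates 1 to 3 and 1.62%, 5.68% and 4.59% in artemisinin replicates 1 to 3. The sum itself was 82.5 ± 10.4 FPKM in model mice and 73.8 ± 15.4 in treated mice (SD, n = 3 each). The Dusp4 share was therefore lower in every treated mouse while the summed level overlapped between groups. The log2 ratio of Dusp4 to Dusp6 counts was −2.40 ± 0.21 in model mice and −4.87 ± 1.04 in treated mice (SD, n = 3 each). An exact two-sided permutation test of this ratio gave p = 0.1, the smallest that 3 against 3 can give, and 0.133 after Benjamini-Hochberg adjustment over 4 such ratios. All 4 ratios were chosen after values were seen, and the adjustment does not account for that choice. Their p-values are therefore a description. Of the other ratios, that of Etv4 to Etv5 overlapped between groups, at −4.62 ± 0.76 in model mice and −6.08 ± 0.97 in treated mice (SD, n = 3 each; exact two-sided permutation p = 0.2, and 0.2 adjusted).

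**Figure D2:**
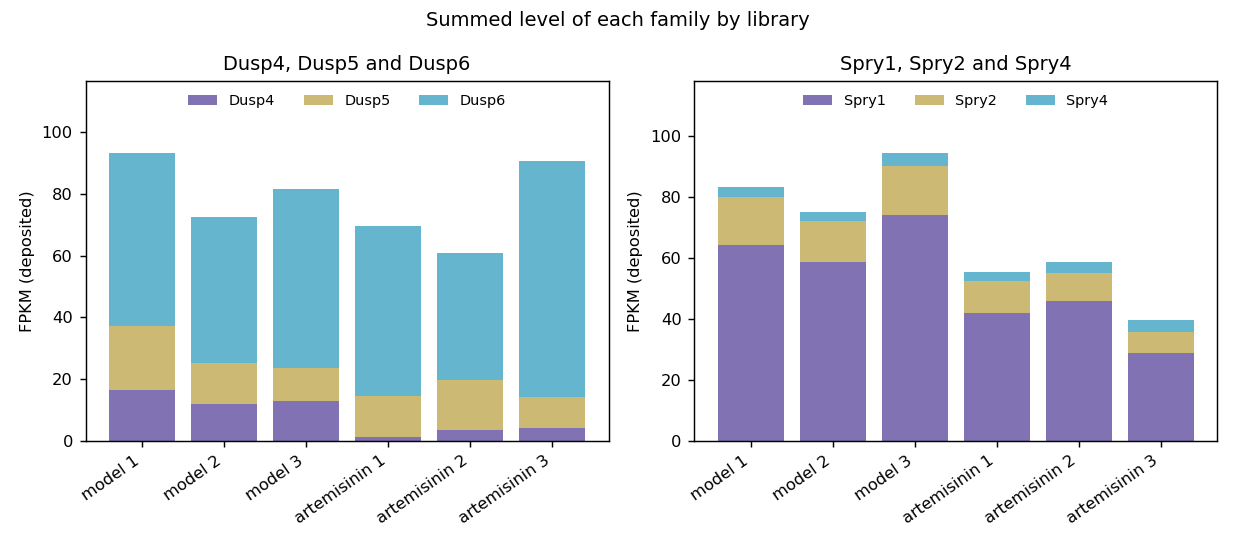
Deposited FPKM (vertical axes) of the DUSP genes (left) and the Sprouty genes (right), stacked for each of the 6 libraries. The DUSP sums overlap between groups while the Dusp4 part is smaller in each artemisinin library, and the Sprouty sums of the 3 artemisinin libraries lie between 39.5 and 58.7, below the lowest model library at 75.1.

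Among the Sprouty genes, whose products restrain RAS-ERK signalling below receptor tyrosine kinases, Spry1 (chromosome 3, 37639947 to 37644599) had 166, 146.6 and 189.3 normalised CPM in model replicates 1 to 3. It had 96.6, 113.9 and 67.0 in artemisinin replicates 1 to 3, and the groups did not overlap. Its log2 fold change was −0.85 with an SE of 0.22 (edgeR adjusted p = 0.0733). Spry2 (chromosome 14, 105891947 to 105896819) had 74.5, 60.2 and 73.8 normalised CPM in model mice and 44.3, 41.3 and 28.1 in treated mice. Its treated mice were again all below the model mice, with artemisinin replicate 3 lowest for Spry1 and Spry2 alike. The log2 fold change of Spry2 was −0.88 with an SE of 0.20 (edgeR adjusted p = 0.0549). Neither gene was called by edgeR. DESeq2 called Spry1 and Spry2 (adjusted p = 0.00436 and 0.00232), and edgeR called Spry1 without artemisinin replicate 2 (adjusted p = 0.0376).

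Spry4, the remaining Sprouty gene of the group (chromosome 18, 38586247 to 38601347), had overlapping groups. Its normalised CPM were 34.6, 32.3 and 47.4 in model replicates 1 to 3 and 29.7, 37.6 and 39.8 in artemisinin replicates 1 to 3, with the highest value in model replicate 3 and the lowest in artemisinin replicate 1. The log2 fold change was −0.09 with a 95% interval of −0.55 to 0.36 (edgeR adjusted p = 0.786), and its sign turned with scaling by library totals (log2 0.01). The log2 ratio of Spry2 to Spry4 counts was 0.88 ± 0.23 in model mice and 0.07 ± 0.54 in treated mice (SD, n = 3 each; exact two-sided permutation p = 0.1, the smallest possible, and 0.133 adjusted over 4 ratios). The 3 values of this ratio with artemisinin were 0.58, 0.14 and −0.51, all below the lowest model value of 0.64.

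The Spred genes encode Sprouty-related proteins that recruit neurofibromin, a RAS inactivator, to the membrane. Spred1 (chromosome 2, 117121071 to 117182279) had 262.3, 206.3 and 204.2 normalised CPM in model replicates 1 to 3 and 87.8, 122.8 and 97.5 in artemisinin replicates 1 to 3. No treated mouse came near the model range, and the spread within each group was narrower than the gap. Spred1 fell 2.19-fold (log2 −1.13 ± 0.19, SE; edgeR adjusted p = 0.0257), the smallest adjusted p of the 10 genes. This call was lost without artemisinin replicate 1 (edgeR adjusted p = 0.0550) and without model replicate 1, 2 or 3 (0.118, 0.0628 and 0.0946). Spred2 (chromosome 11, 19924442 to 20024026) had 79.6, 55.5 and 70.0 normalised CPM in model mice and 34.7, 46.8 and 41.2 in treated mice. The groups of Spred2 did not overlap, with a log2 fold change of −0.74 and an SE of 0.18 (edgeR adjusted p = 0.0666). It was called by DESeq2 (adjusted p = 0.00710) and by edgeR without artemisinin replicate 2 (adjusted p = 0.0480). The log2 ratio of Spred1 to Spred2 counts was 1.72 ± 0.17 in model mice and 1.32 ± 0.07 in treated mice, without overlap (SD, n = 3 each; exact two-sided permutation p = 0.1, and 0.133 adjusted over 4 ratios).

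Phlda1, which ERK signalling induces (chromosome 10, 111506286 to 111508649), had 105.2, 68.9 and 76.5 normalised CPM in model replicates 1 to 3 and 61.4, 48.0 and 62.6 in artemisinin replicates 1 to 3. The gap between the highest treated and the lowest model mouse was narrow. The log2 fold change was −0.54 with an SE of 0.20 (edgeR adjusted p = 0.155), and no alternative run called this gene. Without model replicate 1 it was −0.35.

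**Figure D3:**
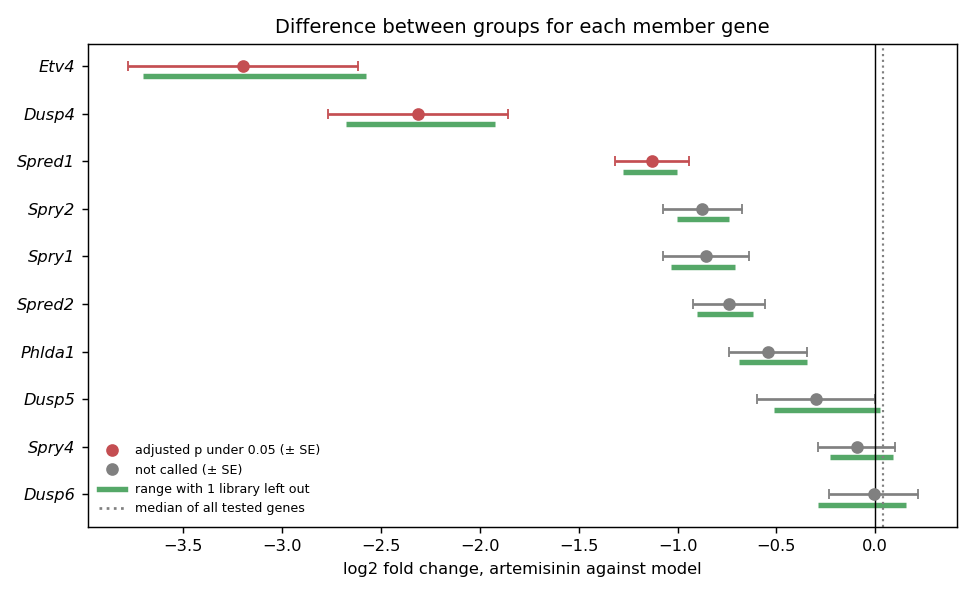
Log2 fold change (horizontal axis) of each of the 10 genes with its SE, in red where edgeR's adjusted p was under 0.05, and in green the range over the 6 fits that leave out 1 library. Etv4, Dusp4 and Spred1 are the called genes at −3.20, −2.31 and −1.13, and the green ranges of Dusp5, Dusp6 and Spry4 cross 0.

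Model replicate 1 had the highest value of the 3 model mice for 7 of the 10 genes and model replicate 3 for the other 3. The lowest treated mouse was artemisinin replicate 1 for 4 genes, replicate 2 for 2 and replicate 3 for 4, so no single treated mouse was low throughout. Relative to the model mean of each gene, the mean log2 level of the 10 genes was −1.13, −0.93 and −1.12 in artemisinin replicates 1, 2 and 3 and 0.24, −0.25 and −0.09 in model replicates 1, 2 and 3. The medians over the 10 genes were smaller with artemisinin, at −0.72, −0.65 and −0.97, and Etv4 and Dusp4 had the lowest relative levels of the 10 in each treated mouse. The spread over mice was wider with artemisinin for Dusp4, whose coefficient of variation was 54.7% against 19.3% in the model. For Etv4 it was wide in both groups, at 54.1% and 61.4%, and for Phlda1 it was lower with artemisinin, at 14.2% against 22.9%.

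Levels of different genes were compared only per length. By deposited FPKM the order in the model was Spry1 (65.7 ± 7.78), Dusp6 (53.8 ± 5.55), Phlda1 (41.1 ± 8.75), Spred1 (30.5 ± 4.05), Spry2 (15.1 ± 1.5), Dusp5 (15.1 ± 5.19), Dusp4 (13.6 ± 2.41), Etv4 (4.78 ± 2.86), Spry4 (3.54 ± 0.737) and Spred2 (1.73 ± 0.278; SD, n = 3 for each). The SD ranges of neighbours overlapped from Spry1 down to Spred1, among Spry2, Dusp5 and Dusp4, and between Etv4 and Spry4. Even so, Spry1, Dusp6, Phlda1 and Spred1 kept this order of FPKM in each of the 3 model libraries. The order among Spry2, Dusp5 and Dusp4 and that of Etv4 and Spry4 changed between model libraries on this scale. With artemisinin Dusp6 led at 57.8 ± 17.8 FPKM, ahead of Spry1 at 38.8 ± 8.90, with overlapping SD ranges. Dusp4 stood at 2.92 ± 1.59 FPKM, next to Spry4 at 3.55 ± 0.511, and Etv4 was last at 0.565 ± 0.317. The FPKM of 3 genes rested on unusual lengths. The length behind the deposited FPKM of Spred2 was 37937 bases, 8.21 times the 4619 bases of its exons in GENCODE vM21, and those of Spry2 and Spry4 were 2.13 and 2.18 times, where the median over 15260 genes was 0.884. Per kilobase of GENCODE exon, with counts scaled to the library total as in FPKM, Spred2 had 14.2 ± 2.28 in the model and 9.12 ± 1.06 with artemisinin, a model level within the spread of that of Dusp4 (12.1 ± 2.13) rather than the lowest of the 10. On that scale Spry2 had 32.0 ± 3.19 in the model, beyond the SD ranges of Dusp4 and of Dusp5 (11.05 ± 3.81). Spry4 had 7.71 ± 1.61 in the model, beyond the SD range of Etv4 (3.73 ± 2.24). With artemisinin Spry4 had 7.75 ± 1.11 and Dusp4 2.59 ± 1.41 per kilobase of exon, also without overlap. These gaps were absent from the deposited FPKM. In the count fits a fold change between groups does not use the length, whereas on log2(FPKM + pseudocount) a longer length shrinks it. Spred2 had −0.59 on log2(FPKM + 0.1) and −0.37 on log2(FPKM + 1) against −0.74 in edgeR. FPKM are also scaled by library totals, and edgeR with library totals alone gave −0.63 for Spred2. How much of the change came from length and how much from scaling was not tested.

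Other genes of the pathway were read from the same fit, in lists chosen by role. Of 25 core components from adaptors to kinases, 0 were called higher and 1 lower, with a median log2 fold change of −0.16. Of all genes tested, 2.17% were called higher and 2.30% lower. Counts of 0 or 1 in lists this short cannot be told from those shares. The called gene was Shc1, an adaptor that links receptor tyrosine kinases to RAS, which fell from a model mean of 189 ± 18.6 normalised CPM (SD, n = 3) to 109.8 ± 13.7 (n = 3), a log2 fold change of −0.78 with an SE of 0.16 (edgeR adjusted p = 0.0387). The uncalled core genes with the smallest p were the RAS relatives Rras and Rras2 and the receptor adaptor Frs2, with log2 fold changes of 0.77, 0.43 and −0.34 (edgeR adjusted p = 0.0741, 0.110 and 0.137). For the kinases Braf, Map2k1 and Mapk3 the log2 fold changes were −0.34, −0.22 and −0.14, and none was called. The call of Shc1 was lost when any 1 library other than artemisinin replicate 2 was left out, with adjusted p from 0.0627 without artemisinin replicate 1 to 0.171 without model replicate 1.

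Of 18 other feedback regulators, 1 rose and 1 fell, where 2.17% of all genes tested were called higher and 2.30% lower. Dusp1, an immediate early phosphatase of p38, JNK and ERK, rose from a model mean of 160.5 ± 44.6 normalised CPM (SD, n = 3) to 387.4 ± 51.2 (n = 3), a log2 fold change of 1.27 with an SE of 0.24 (edgeR adjusted p = 0.0356). Its values were 110.5, 174.4 and 196.4 in model replicates 1 to 3 and 435.2, 333.3 and 393.7 in artemisinin replicates 1 to 3, so Dusp1 and Dusp4 were called in opposite directions. Lztr1, which encodes an adaptor for RAS degradation, fell from a model mean of 145.5 ± 30.4 normalised CPM to 81.8 ± 4.13 (log2 −0.83 ± 0.17, SE; edgeR adjusted p = 0.0449), and it was called in 3 of 14 alternatives. Rasa3, Dusp10 and Dusp2 had log2 fold changes of 0.62, 0.87 and 1.51 without a call (edgeR adjusted p = 0.0552, 0.0649 and 0.0661). The Dusp1 call was lost without artemisinin replicate 1 or 3 (edgeR adjusted p = 0.0768 and 0.0721) or model replicate 1, 2 or 3 (0.117, 0.113 and 0.0950).

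Among 22 tested genes of 23 other outputs and ETS factors, 0 were called higher and 1 lower, with 11 on each side of 0. The shares over all genes tested were 2.17% called higher and 2.30% lower. Epha4, an ephrin receptor gene, fell from a model mean of 42.0 ± 10.7 normalised CPM (SD, n = 3) to 18.6 ± 1.81 (n = 3), a log2 fold change of −1.18 with an SE of 0.21 (edgeR adjusted p = 0.0290). The Epha4 call was lost when any 1 library other than artemisinin replicate 2 was left out (edgeR adjusted p from 0.0507 without model replicate 2 to 0.112 without model replicate 1). Phlda2, Epha2 and Etv1 had log2 fold changes of −1.79, −0.86 and −0.62 without a call (edgeR adjusted p = 0.0547, 0.0556 and 0.0603). Etv5, a relative of Etv4 and a factor of alveolar type 2 cells, stood at 265.2 ± 25.9 normalised CPM in model mice against 93.2 ± 59.4 in treated mice (log2 −1.51 ± 0.43, SE; edgeR adjusted p = 0.0947). Fos and Egr1, immediate early genes that ERK also induces, were chosen after their values were seen and had log2 fold changes of 1.36 and 1.02 (edgeR adjusted p = 0.0836 and 0.0819). Their 3 artemisinin values lay above all model values, where this held for 16.3% of all genes tested.

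A published score of MAPK pathway activity uses 10 transcripts, of which Dusp4, Dusp6, Spry2, Spry4, Etv4 and Phlda1 are described above and Etv5, Epha2, Epha4 and the cyclin D1 gene Ccnd1 complete it. Ccnd1 had a log2 fold change of −0.54 and an SE of 0.16 (edgeR adjusted p = 0.103). Of these 10 genes 3 were called lower (Etv4, Dusp4 and Epha4) and 0 higher. All artemisinin values lay below the model values for 8 of them, with a median log2 fold change of −0.87 over the 10. Of all genes tested, 2.30% were called lower and 17.3% had all artemisinin values below the model values. Every score gene belongs to the lists above, so these counts repeat values already described and carry no test of the score.

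**Figure D4:**
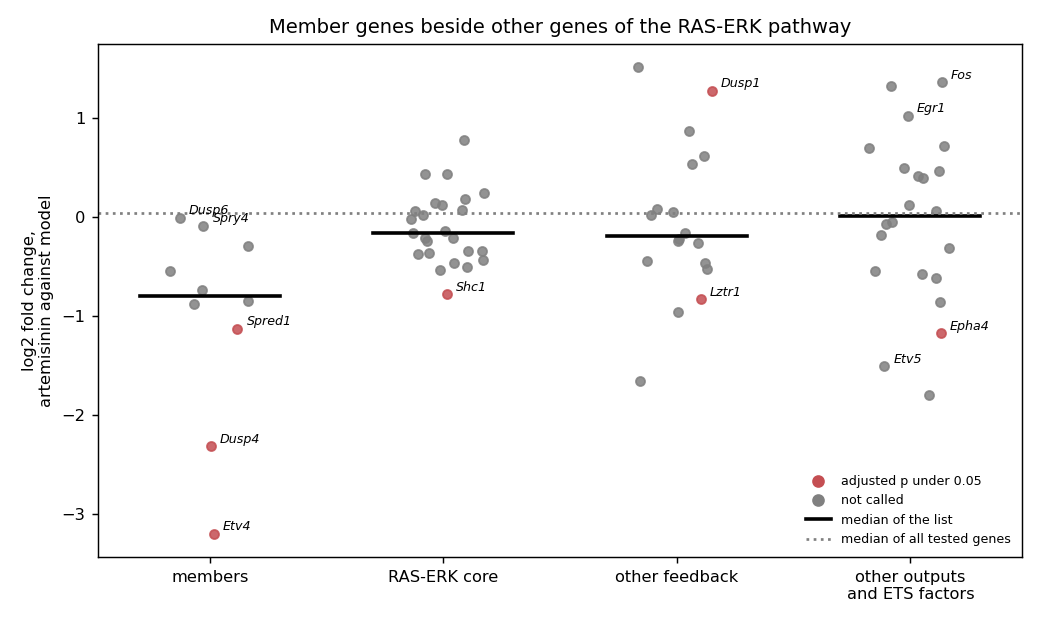
Log2 fold change (vertical axis) of the 10 genes and of the 3 other lists of the pathway, with 1 point per tested gene, red where edgeR's adjusted p was under 0.05, and a bar for each list's median. The medians are −0.80 for the 10 genes, −0.16 for the core, −0.19 for other feedback genes and 0.00378 for other outputs, and Dusp1 is the red point above 0.

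The genes most like the 3 members with the smallest p were found by Pearson correlation of log2 CPM over the 6 libraries. The search covered 12221 genes that averaged 5 CPM or more, without the members and without clone, Gm, Rik or pseudogene symbols. For Spred1 the most alike were Shc1, Sowahb and Azin1 (r = 0.9987, 0.9981 and 0.9975). For Etv4 they were Vps33b, Golgb1 and Zfp687 (r = 0.9958, 0.9955 and 0.9950), and for Dusp4 they were Cyb561a3, Sgms1 and Ncor1 (r = 0.9984, 0.9962 and 0.9962). The correlations are a description and include the difference between the groups. Values of r above 0.9 were common, at 8.07%, 4.21% and 9.60% of the genes compared for Spred1, Etv4 and Dusp4.

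Markers of several cell types moved with the groups. The summed normalised CPM of 10 alveolar type 2 markers was 64440 to 93470 in the model and 11280 to 29430 with artemisinin, with 6 of the 10 called lower, none higher, and no marker at 0 in any library. Model replicate 1 had the highest Etv4, Dusp4, Dusp5, Spry2, Spred1, Spred2 and Phlda1 and the highest alveolar type 2 sum. Its sum of 6 proliferation markers was also highest (202.5 against 106.3 and 106.8 in the other model mice and 186.2 in artemisinin replicate 3). In the model group it had the lowest sums of most other lists, among them club, ciliated, endothelial, smooth muscle and fibroblast markers. Its macrophage sum was the highest of that group. Among treated mice the alveolar type 2 sum was lowest in artemisinin replicate 3, as were Etv4, Dusp5, Spry1 and Spry2. Dusp4, Spred1, Spred2 and Spry4 were lowest in artemisinin replicate 1, and Dusp6 and Phlda1 in replicate 2. All 7 smooth muscle markers were called higher, with sums of 268 to 413.4 in the model and 1047 to 1879 with artemisinin. Of 9 neutrophil markers, 6 were called higher, with sums of 115.2 to 176.6 in the model against 775.3 to 4842 with artemisinin. Over all genes tested, 2.17% were called higher and 2.30% lower. Sums of 8 endothelial markers overlapped (1865 to 3046 in the model, 1986 to 3930 with artemisinin), as did those of 8 alveolar type 1 markers (4549 to 5978 and 3496 to 6423). Sums of 8 fibroblast markers were 1501 to 2175 and 2468 to 3375, with 0 called. Sums of 6 club cell markers (7967 to 20220 in the model, 20520 to 72640 with artemisinin) and of 6 adipocyte markers (30.9 to 49.8 and 61.7 to 387.6) also lay apart with 0 called. Artemisinin replicate 2 had the highest sums of 7 skeletal muscle and 7 keratinocyte markers, 5504 and 466, against at most 61.9 and 10.3 in any other library. Without that library edgeR called 5 of the 10 genes lower, adding Spry1 and Spred2, while calls over all genes rose from 682 to 1383 and the share of all genes called lower from 2.30% to 4.62%. The part of the other marker shifts in the changes of the 10 genes was not tested.

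Library totals were 25566173 to 33126585 counts with artemisinin and 32964061 to 34745497 in the model, and 3 counts stood for at most 0.117 CPM in any library. The lowest count of any of the 10 genes was 25, for Etv4 in artemisinin replicate 3. Over all genes 331 were called higher and 351 lower with artemisinin, 4.47% of those tested, and with scaling by library totals the split was 464 against 319 as the median log2 value over all genes moved from 0.04 to 0.15. Nothing in the labels says that the mice were kept or prepared in batches. The edgeR p-values set the difference between groups against the spread within groups of these 6 libraries.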

How the data were processed

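The authors deposited raw read counts per gene and, in a second table, FPKM. Per the labels' protocols, RNA came from a mirVana kit and libraries from a stranded TruSeq mRNA kit. Per the submitters' processing notes the build was GRCm38 (mm10). The aligner, counting tool, annotation and strand setting are not given in the sources used here, and reads of overlapping antisense genes may not have been separated. The deposited FPKM equalled counts over library total and a constant per gene within a relative 3.4e-07 over 15462 genes, so they are no independent evidence.

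The test was edgeR 4.0.16 (R 4.3.3) with filterByExpr, TMM, robust glmQLFit and glmQLFTest, Benjamini-Hochberg adjustment over 15242 genes and a threshold of 0.05. The SE is the fold change over the root of its F value, and 95% intervals use that SE and the degrees of freedom of the fit. Normalised CPM use the TMM-scaled library size. Alternatives were DESeq2 1.42.0, limma 3.58.1 on log2(FPKM + 0.1) or log2(FPKM + 1) with a mean FPKM of at least 0.5 or no filter, other scalings, a replicate block and each library left out. Each library was taken as 1 mouse.

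The 10 genes and all lists were chosen with earlier results of these data known. The text names all 10, the called genes and the 3 uncalled genes with the smallest p in each pathway list, and Etv5, Ccnd1, Epha2 and Epha4. The count ratios, Fos, Egr1, the uncalled kinases and the check of gene lengths were chosen after values were seen. Of 15 marker lists, those of club, ciliated, T cell, B cell, adipocyte and alveolar type 1 markers had 0 genes called. The endothelial, fibroblast, skeletal muscle, keratinocyte and proliferation lists also had 0 called, and macrophage markers had 1 called in each direction.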

Additional observations from a re-analysis of the deposited data

How the results depend on the processing

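In all 14 alternatives Etv4, Dusp4, Spred1, Spred2, Spry1, Spry2 and Phlda1 kept a log2 fold change below 0. Sizes moved by over 1.5 times for Etv4 (−3.20 to −1.80) and Spred2 (−0.74 to −0.37) with limma on log2(FPKM + 1), and for Phlda1 (−0.54 to −0.35) without model replicate 1. Signs turned for 3 uncalled genes. Dusp6 had 0.107 with library totals alone, 0.0623 with limma on log2(FPKM + 0.1), with or without a filter, and 0.0619 on log2(FPKM + 1), and Spry4 had 0.0141, 0.0163 and 0.0118 in the same settings. With 1 library left out Dusp6 ranged from −0.29 to 0.157 (above 0 at 0.0359 and 0.157 without artemisinin replicate 1 or 2 and at 0.0300 and 0.0462 without model replicate 1 or 3), Spry4 from −0.23 to 0.0911 (0.0231 without artemisinin replicate 1, 0.0911 without model replicate 3) and Dusp5 from −0.51 to 0.0257 (without model replicate 1). The cause was not tested.

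DESeq2 called 6 of the 10 genes lower, and 1234 genes higher and 1052 lower in all. Limma on log2(FPKM + 0.1) with no filter called 1 of the 10, Spred1, and 207 genes lower in all. It lost Etv4 (adjusted p = 0.0505) and Dusp4 (0.0630). With 1 library left out edgeR called 0 to 5 of the 10 genes lower, and 6 to 670 genes higher and 11 to 713 lower in all. No member was called higher in any alternative. These fits also rest on fewer mice. No shared deviation was seen between same-numbered libraries. Their deviations from the group means correlated at −0.004, −0.103 and 0.03, and 1 of 3 treated libraries matched its own number best. With 3 libraries per group these values cannot exclude that the mice were paired. With the replicate number as a replicate block edgeR called 65 genes higher and 63 lower, and 1 of the 10 genes, Etv4. The lowest count of the 10 genes was 25, for Etv4 in artemisinin replicate 3, and the part of depth in its values was not tested.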
